A study of Homo sapiens with 14 samples.

Results

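The regions described here are promoter regions of LX-2 cells that were called as H3K27ac peaks on the soft matrix and not on the stiff matrix. LX-2 is an immortalised human hepatic stellate cell line, 1 line of wild type genotype, and every group was cultured for 2 days on a soft matrix (2K in the titles) or a stiff matrix (40K in the titles). CUT&Tag, in which an antibody guides a transposase to its target so that nearby DNA is cut out and sequenced, was done with antibodies against H3K27ac, H3K4me3, H3K27me3 and phosphorylated JUN (p-JUN). H3K4me3, p-JUN and H3K27me3 had 2 libraries per matrix. H3K27ac had 1 list per matrix, named as merged, so it carries no replicate error. The p-JUN libraries labelled stiff are titled TCP, the study's abbreviation for culture plastic, so those cells may have been on plastic. Nothing said whether replicate libraries came from separate cultures, and the p-values below measure only the spread between libraries.

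Members were chosen by the H3K27ac lists themselves. The 18238 soft peaks and 13322 stiff peaks were merged wherever they shared 1 bp, which gave 20403 regions, and a region was kept when it was called in the soft list alone and lay within 1 kb of the start of a protein-coding transcript. This left 2258 soft-only promoter regions. In all, 6437 regions lay at promoters. Another 3599 of these were called in both lists and 580 in the stiff list alone. The soft-only share was 35.1% at promoters and 35.0% over all merged regions (7144 of 20403), a figure set by the rule and by the unequal length of the lists. A peak list holds called peaks only, so the acetylation of these promoters on stiff is unknown beyond the fact that no peak was called.

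Acetylation of lysine 27 of histone H3 marks promoters and enhancers in use. Trimethylation of lysine 4 marks promoters whether transcription is high or low, and trimethylation of lysine 27 is laid down by Polycomb at silenced genes. JUN is a subunit of AP-1, a dimer of basic leucine zipper proteins that binds TGACTCA, or with ATF partners the longer TGACGTCA. Hepatic stellate cells are the main matrix-producing cells of the injured liver, and matrix stiffness is known to promote their activation to myofibroblasts.

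Of the 12 stellate markers, 7 had H3K4me3 within 1 kb of a start site in all 4 libraries (ACTA2, COL1A1, PDGFRB, VIM, TAGLN, SPARC and RELN), and COL1A2, DES and LRAT had it in none. None of the 5 hepatocyte markers (ALB, APOA1, TTR, SERPINA1 and HNF4A) had it in any library. Of markers of other cells, KDR (1 of 3 endothelial), CD14 (1 of 4 macrophage and leukocyte), and EPCAM and SOX9 (2 of 4 cholangiocyte) had it in all 4 and the others in none. CD14 was itself a soft-only promoter, and CD68 was acetylated in both lists. PDGFRB was the stellate marker with H3K27ac in the soft list alone.

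Sequences around AP-1 letters in soft-only promoters are shown because p-JUN was called over each of the first 5 in all 4 libraries. At 3 of those 5 no H3K4me3 peak overlapped the acetylated region in any library. All are hg19 (GRCh37) reference sequence, read 5′ to 3′ on the strand of the gene, with 40 bases to each side. Capitals mark TGACTCA or its reverse complement TGAGTCA, and none of the windows overlaps an annotated exon. PLAU encodes the urokinase plasminogen activator, LAMC1 a laminin chain, YAP1 a coactivator of stiffness-responsive transcription, ANXA2 a calcium-dependent membrane protein and CSNK1E a casein kinase.
PLAU (chr10:75669152-75669238, plus strand): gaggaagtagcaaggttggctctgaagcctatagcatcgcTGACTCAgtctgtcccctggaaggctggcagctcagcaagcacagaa
ANXA2 (chr15:60666909-60666995, minus strand): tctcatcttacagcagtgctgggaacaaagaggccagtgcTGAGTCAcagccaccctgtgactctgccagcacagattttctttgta
CSNK1E (chr22:38714455-38714541, minus strand): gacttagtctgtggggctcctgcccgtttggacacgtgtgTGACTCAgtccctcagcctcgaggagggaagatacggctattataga
LAMC1 (chr1:182991568-182991654, plus strand): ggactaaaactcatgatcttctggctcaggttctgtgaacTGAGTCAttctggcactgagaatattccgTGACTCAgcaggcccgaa
YAP1 (chr11:101982845-101982931, plus strand): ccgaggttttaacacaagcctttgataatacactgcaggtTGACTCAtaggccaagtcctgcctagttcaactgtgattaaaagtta
Next to these, 2 windows with the longer letters TGACGTCA in capitals come from promoters that did carry H3K4me3. XRCC2 encodes a protein of homologous recombination and H4C5 a replication-dependent histone H4.
XRCC2 (chr7:152373314-152373401, minus strand): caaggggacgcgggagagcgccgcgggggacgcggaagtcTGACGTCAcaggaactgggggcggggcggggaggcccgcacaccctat
H4C5 (chr6:26204667-26204754, plus strand): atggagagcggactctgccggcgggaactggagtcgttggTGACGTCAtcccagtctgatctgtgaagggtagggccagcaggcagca

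The CSNK1E letters lay 409 bp upstream of the start site. PLAU held them 260 bp downstream, within an intron, and the ANXA2 window lay 248 bp upstream of one ANXA2 start and within an intron of longer transcripts. LAMC1 had 2 matches within 1 window, 944 and 915 bp upstream, and YAP1 had its match 357 bp upstream of a start inside an intron of longer transcripts. The letters of the XRCC2 and H4C5 windows lay 132 and 127 bp upstream of their starts. Those of XRCC2 lay 120 bp from the acetylation summit and outside the acetylated region, which ended at chr7:152373319.

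The acetylation peaks of soft-only promoters were small. These values come from the lists that chose the members and are a description with no test. Fragments at the summit, recovered from the deposited fold and p-value, had a median of 21 on soft (10th to 90th percentile 14 to 33, highest 89). Promoters called in both lists had a median of 30 on soft and 25 on stiff. The fold over local background was 6.38 at the median against 7.14 in promoters of both lists, and the width 367 bp against 663 bp. The 580 stiff-only promoters mirrored this, with a median of 19 fragments on stiff and a width of 341 bp.

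How often a soft-called promoter was missing from the stiff list fell with its height. Under 15 fragments 309 of 401 were missing (77.1%), at 20 to 24 fragments 654 of 1275 (51.3%), and at 40 or more 98 of 1016 (9.65%). At the threshold, the weakest members were DIP2A, PBXIP1 and VPS29, with −log10 q values of 5.01, 5.02 and 5.06 and 16, 13 and 15 fragments. A total of 1081 members had a −log10 q under 10, and the count of members fell to 1113 when the soft list was shortened, by its weakest peaks, to the length of the stiff list. At the edge of the 1 kb window, 26 members lay over 900 bp from a start site (median 24.5 fragments) and 27 soft-only regions lay just outside, up to 1100 bp away (median 28). A stiff peak lay within 1 kb of 164 members, and 2094 had none.

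**Figure D1:**
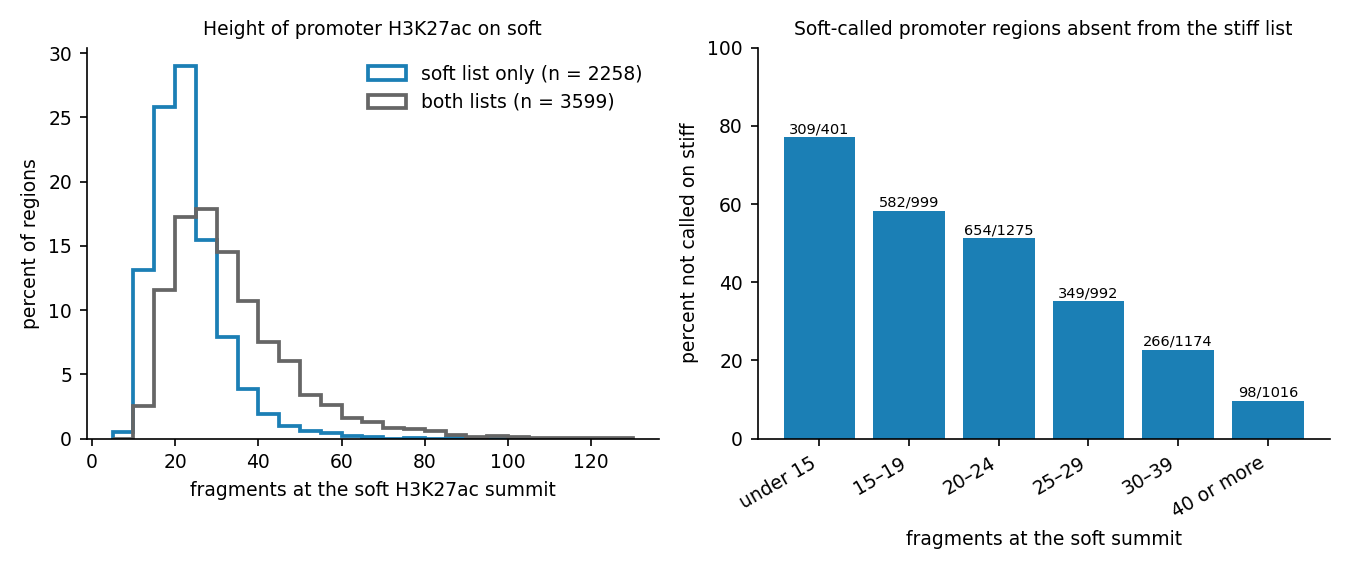
Left, percent of regions by fragments at the soft H3K27ac summit (bins of 5) for promoter regions called in the soft list only (n = 2258) and in both lists (n = 3599). Right, percent of soft-called promoter regions that the stiff list lacks in each height class, with counts above the bars, falling from 77.1% under 15 fragments to 9.65% at 40 or more.

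The soft-only summits sat near start sites on both sides. Their median distance to the nearest start was 180 bp (148 bp in promoters of both lists), 1867 of 2258 lay within 500 bp, and 54.6% were downstream of the start. The regions themselves covered a start site in 53% of cases, against 75.5% for both lists, whose regions are wider. Start sites on both strands lay within 1 kb of 12% of members and of 17.9% of promoters called in both lists.

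In base composition the soft-only promoters resembled the others. Within 150 bp of the summit the median GC content was 63.8% (62.8% for both lists), and 68.8% of windows had over 50% GC and an observed to expected CpG ratio over 0.6, as against 67.9%. The AP-1 letters TGACTCA, on either strand, occurred in 132 of 2258 windows (5.85%, 95% Wilson interval 4.95 to 6.89, which covers counting error only). They occurred in 9.75% of promoters of both lists, 6.38% of stiff-only promoters and 3.36% of 19794 windows of equal length around 1 start site per protein-coding gene. The longer TGACGTCA was found in 1.28% of members, 1.78% of promoters of both lists and 2.24% of all start sites. Of the other letters searched on both strands, CCAAT occurred in 28.4% of members and 31.4% of promoters of both lists, GGGCGG (GC box) in 55.1% and 53.8%, CCGGAAG (ETS factors) in 13.2% and 14.1%, GGAATG (TEAD) in 15.5% and 14.7%, CACGTG (E-box) in 6.33% and 7.0%, AAGATGGCG (YY1) in 2.17% and 2.86%, and TATAAA in 3.54% and 3.53%. A match is a run of letters and not a measured site.

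Nearly all soft-only promoters carried H3K4me3, on soft and on stiff alike. An H3K4me3 peak overlapped 91.8% and 91.9% of members on soft, against 92.2% and 92.7% on stiff. The means were 91.9% ± 0.0939 (SD, n = 2) and 92.4% ± 0.344 (SD, n = 2), a difference of 0.576 points, and every stiff library was above every soft one. With peaks counted up to 1 kb away the shares were 93.5% and 94.0% on soft, against 93.5% and 94.2% on stiff, and the libraries overlapped. With 2 libraries against 2 an exact permutation test cannot give a p under 0.33. Promoters called in both lists had 92.9% and 93.4% on soft and 93.2% and 94.0% on stiff. H3K4me3 was called in all 4 libraries at 2050 members (90.8%) and in none at 147 (6.51%).

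The 147 soft-only promoters without H3K4me3 had features of their own. Their summits lay 405 bp from the start at the median, against 172 bp for members with H3K4me3 in all 4 libraries, and 120 of the 147 had no H3K4me3 peak within 1 kb in any library. GC content was 51.8% against 64.5%, and 4.76% of windows passed the CpG criteria against 74.1%. AP-1 letters occurred in 32.0% of the 147 and in 3.76% of the 2050. The same split was present in promoters called in both lists, where 48.0% of the 198 without H3K4me3 held the letters. The mark is missing from the acetylated region, and the gene can carry it at a start site elsewhere. Named genes in this class were ANXA2, BPGM, CSF2, CSNK1E, FERMT2, HK1, IFIT2, ITGB5, JUND, MAPK13, MBD6, MMP9, PLAU, RGS5 and TFEB.

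Calls of H3K4me3 in 1 matrix were rare. It was called in both soft and no stiff libraries at 6 members (0.266%), where 0.124% of all promoter H3K27ac regions had that pattern. In both stiff and no soft libraries it was called at 13 (0.576%), where 0.373% had it. The figures for all regions include the members. Promoters of both lists had 0.0% and 0.222%, and stiff-only promoters 0.345% and 0.517%. In 2 of the 6 and 9 of the 13 a peak of the other matrix lay within 1 kb. The 4 soft-called ones without such a neighbour were BATF2, LYST, PPP1R12B and TRAK1, and the 4 stiff-called ones CYB5B, DMAC2L, DMPK and LMNA, all given here after their values were seen.

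p-JUN covered most soft-only promoters but fewer than promoters of both lists. A p-JUN peak lay over 75.1% and 70.6% of members on soft, and over 61.6% and 75.3% in the libraries labelled stiff. The stiff libraries therefore lay on either side of the soft ones in the lists as deposited. The means were 72.9% ± 3.19 (SD, n = 2) and 68.5% ± 9.65 (SD, n = 2), and the difference of -4.38 points was smaller than the spread between the stiff libraries. Without stiff replicate 1 it turned to 2.44 points. With the 4 lists shortened to equal length the shares were 70.2% and 70.6% on soft, against 60.9% and 66.4% on stiff, so both stiff libraries lay below both soft ones and the difference was -6.71 points. Promoters called in both lists stood at 91.5%, 89.6%, 83.3% and 91.4% in the same order, above the members in each of the 4 libraries. Stiff-only promoters stood at 71.7%, 67.1%, 60.2% and 72.4%, close to the members and lowest in the same library.

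**Figure D2:**
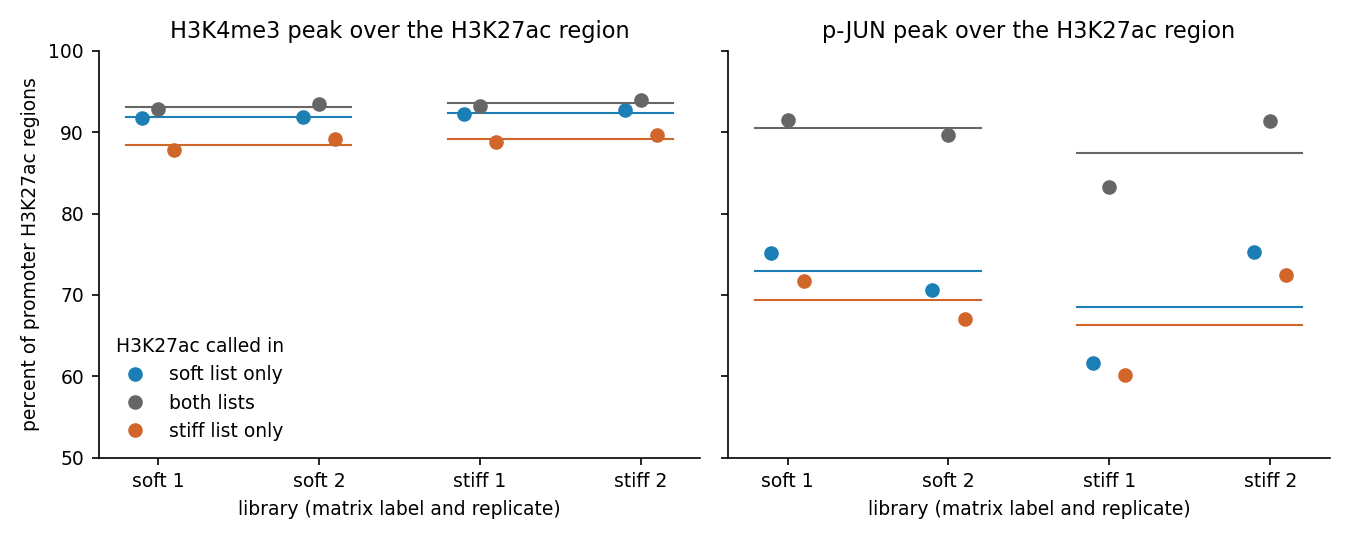
Percent of promoter H3K27ac regions overlapped by an H3K4me3 peak (left) or a p-JUN peak (right) in each library, with points for libraries, lines for the mean of each matrix, and colours for the list in which H3K27ac was called; the axis starts at 50%. For p-JUN the soft-only promoters lie between 61.6% and 75.3% and promoters of both lists between 83.3% and 91.5%.

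Because tall acetylation peaks were more often over p-JUN, the classes were also set side by side at equal height on soft. Of members with under 15 fragments 39.5% had p-JUN in all 4 libraries, against 57.6% of promoters called in both lists. At 20 to 24 fragments the shares were 63.1% and 73.3%, at 30 to 39 fragments 64.7% and 86.5%, and at 40 or more 84.7% and 92.8%. The share of members was below that of both lists in each of the 6 height classes. Regions of both lists were also wider (median 663 bp against 367 bp), so a p-JUN peak could overlap them more easily. Neither width nor height on stiff was matched. H3K4me3 in all 4 libraries ran the other way with height, from 95.1% of members under 15 fragments to 70.4% at 40 or more (97.8% to 86.6% in both lists).

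**Figure D3:**
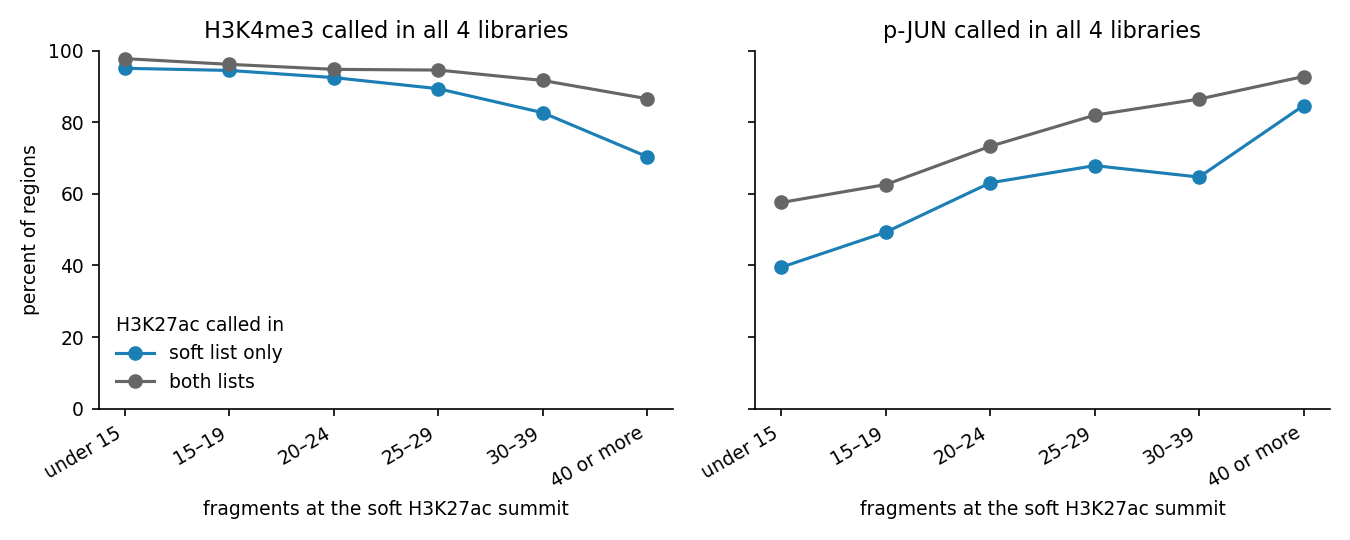
Percent of promoter regions with H3K4me3 (left) or p-JUN (right) called in all 4 libraries, by fragments at the soft H3K27ac summit, for regions called in the soft list only and in both lists. In every height class the soft-only regions had the lower p-JUN share, from 39.5% against 57.6% in the lowest class to 84.7% against 92.8% in the highest. Regions of both lists were wider, and width was not matched.

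Both marks were present in all 4 libraries at 1164 members (51.6%, against 74.7% of promoters of both lists). Members with H3K4me3 in all 4 libraries and p-JUN in none numbered 371 (16.4%, against 4.95%), and they had a median of 18 acetylation fragments. AP-1 letters were found in 8.68% of the 1314 members with p-JUN in all 4 libraries, 2.4% of the 541 with it in 1 to 3 and 1.24% of the 403 with it in none. Of the 107 members with p-JUN in all 4 libraries and H3K4me3 in none, 42.1% held the letters, and of the 1164 with both marks 5.24%. The p-JUN summit lay 110 to 126 bp from the acetylation summit at the median, depending on the library.

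Few soft-only promoters had p-JUN calls in 1 matrix and not the other. In both soft and no stiff libraries p-JUN was called at 34 members (1.51%), where 1.23% of all promoter H3K27ac regions had this pattern. The reverse held at 7 (0.31%), where 0.249% had it. Both shares are near that background, which includes the members themselves. Promoters called in both lists had 0.945% and 0.0834%, and stiff-only promoters 1.9% and 1.03%. A p-JUN peak of the other matrix lay within 1 kb of 9 of the 34 and of 2 of the 7. BATF2 was the 1 member with H3K4me3 and p-JUN each in both soft and no stiff libraries. This gene encodes a leucine zipper partner of JUN. Its H3K4me3 summits held 19 and 24 fragments on soft and its p-JUN summits 41 and 38, low counts for these libraries, and its acetylation summit held 24. PDGFRB, the platelet-derived growth factor receptor of stellate cells, had p-JUN summits of 46 and 39 fragments on soft and no call in either stiff library, with H3K4me3 at 47 and 58 on soft against 46 and 54 on stiff. H3K4me3 counts are as recovered and stiff replicate 2 is the deepest library, and after centring the change in H3K4me3 at PDGFRB was -0.53 ± 0.125 (log2, SE, adjusted p = 0.115 by limma). IFIT2, an interferon-induced gene, went the opposite way, with p-JUN at 37 and 42 fragments in the stiff libraries alone.

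H3K27me3 was almost absent from soft-only promoters. A broad peak overlapped 7, 1, 1 and 2 of them in soft replicates 1 and 2 and stiff replicates 1 and 2, and 7 promoters in all, those of SHANK2, SESN3, SLC25A21, LSR, TOX2, PDK4 and ZFPM2. SESN3, a sestrin of the stress response, was the 1 called in both soft and no stiff libraries, with folds of 3.26 and 3.58. All 7 had 10 to 16 acetylation fragments and H3K4me3 in all 4 libraries. Soft replicate 1 held 19843 H3K27me3 peaks, where the other 3 libraries held 6974 to 9228. The mean share differed by -0.111 points, stiff minus soft, and by 0.0221 without that library.

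For the size of the H3K4me3 and p-JUN signals, log2 summit fragments were compared between matrices with limma over all regions of a mark that were called in its 4 libraries, each library centred on its median. Of 16098 H3K4me3 regions 2035 overlapped a soft-only promoter, and of 40433 p-JUN regions 1377 did, with regions merged over the 4 libraries. A merged region can be wider than its peaks, so a member that no peak of 1 library touched could still be tested through the region it lay in. At a Benjamini-Hochberg adjusted p under 0.05 no member passed for H3K4me3, where 0.0248% of all regions were called higher on stiff and 0.0373% lower. For p-JUN no region at all was called in either direction (0%), the lowest adjusted p being 0.0628. At an unadjusted p under 0.05, 155 members were higher and 139 lower for H3K4me3 (7.62% and 6.83%, all regions 6.65% and 12.6%). For p-JUN 10 members were higher and 361 lower (0.726% and 26.2%, all regions 10.2% and 12.9%). Promoters of both lists gave close to the same p-JUN shares as the members, 1.05% and 26.3%.

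When limma's prior variance followed the mean level, calls appeared in both marks. H3K4me3 was then higher on stiff at 72 members (3.54%, all regions 2.29%) and lower at 42 (2.06%, all regions 2.17%). p-JUN was higher at 3 (0.218%, all regions 6.15%) and lower at 137 (9.95%, all regions 7.37%). Promoters called in both lists gave 0.847% and 13.5% for p-JUN, so a lean towards lower p-JUN was present there too.

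The median log2 change of p-JUN, stiff minus soft, was -0.21 over the 1377 members, -0.211 over promoters of both lists, -0.186 over stiff-only promoters and -0.0521 over all p-JUN regions. Relative to the library median, member p-JUN regions stood at -0.380 and -0.374 (log2) on soft and at -0.666 and -0.527 on stiff, so the 2 matrices did not overlap. On the deposited fold, which divides by local background, the median change was -0.0446. For H3K4me3 the median change was 0.0226 over members and 0.0413 over promoters of both lists.

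**Figure D4:**
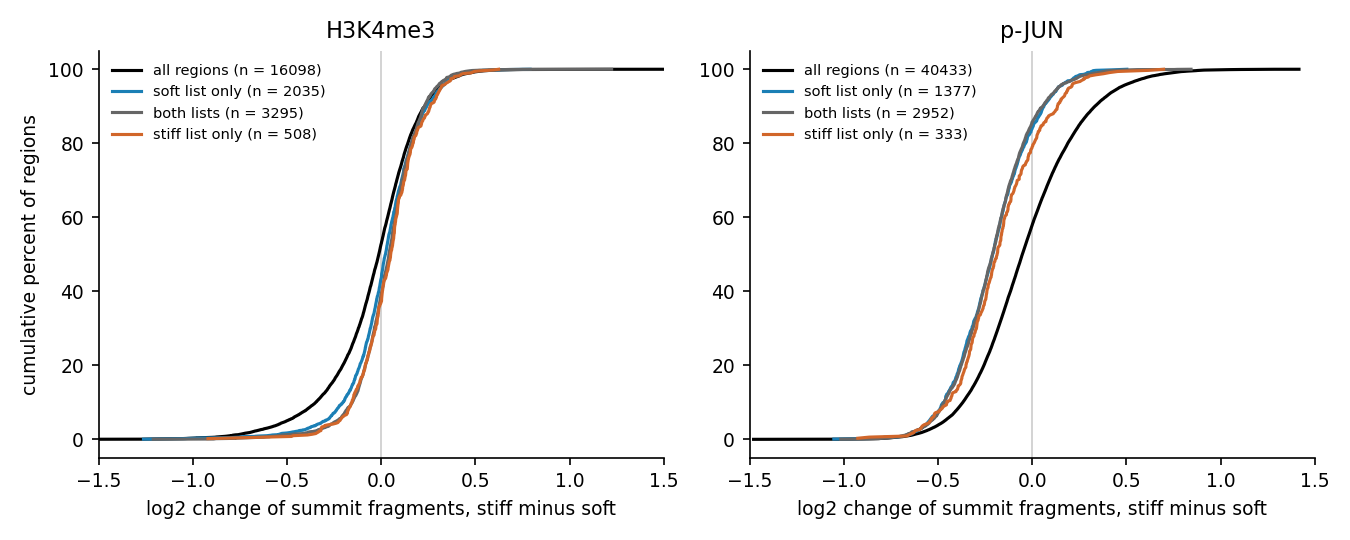
Cumulative percent of regions by log2 change of summit fragments, stiff minus soft, for H3K4me3 (left) and p-JUN (right), over all regions called in 4 libraries and over those at promoters whose H3K27ac was called in the soft list only, both lists or the stiff list only. The 3 promoter curves of p-JUN lie together to the left of all regions, with medians of -0.21, -0.211 and -0.186 against -0.0521.

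Members with the lowest p in each direction are given as values, since none passed with a common prior variance. When the prior variance followed the mean level, the H3K4me3 adjusted p by limma was 0.00942 for C1R, 0.00193 for PDE4B and 0.02 for LRCH1. It was 0.00127 for BHLHE40, 0.0018 for INTS6 and 0.00588 for EPC2. Across the H3K4me3 libraries the median peak of stiff replicate 2 held 207 fragments against 120 to 151 in the others, so higher raw counts on stiff need not be a higher centred level. C1R, a complement protease, had 51 and 67 H3K4me3 fragments on soft against 33 and 51 on stiff, a log2 change of -0.976 ± 0.0949 (SE, adjusted p = 0.0554 by limma). PDE4B, a cAMP phosphodiesterase, had 66 and 89 on soft against 33 and 59 on stiff (-1.26 ± 0.129, adjusted p = 0.0554). For LRCH1, a leucine-rich repeat protein, the change was -1.04 ± 0.104. In the other direction BHLHE40, a helix-loop-helix repressor, had 117 and 162 on soft against 283 and 382 on stiff (0.79 ± 0.104, adjusted p = 0.0554), followed by INTS6, an Integrator subunit, at 0.722 ± 0.10, and EPC2, a subunit of an acetyltransferase complex, at 0.626 ± 0.104.

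For p-JUN the lowest values were those of CLP1, RUSC1 and KATNA1. CLP1, an RNA kinase, had 61 and 47 p-JUN fragments on soft against 24 and 35 on stiff, a log2 change of -0.942 ± 0.149 (SE, adjusted p = 0.0628 by limma). RUSC1 stood at -0.856 ± 0.133 and KATNA1, which severs microtubules, at -0.832 ± 0.131. RELB, an NF-kappaB subunit whose promoter window holds the AP-1 letters, had 110 and 97 fragments on soft against 51 and 76 on stiff (-0.787 ± 0.149, adjusted p = 0.0659). In the other direction ZNF660, a zinc finger gene that shares its promoter with ZNF197, stood at 0.503 ± 0.124 (adjusted p = 0.0881 by limma) and TPCN2, a lysosomal channel, at 0.476 ± 0.134. When the prior variance followed the mean level, the adjusted p by limma was 0.000551 for CLP1, 0.0031 for RUSC1 and 0.00465 for KATNA1. It was 9.56e-05 for RELB, 0.0466 for ZNF660 and 0.02 for TPCN2. For MBOAT2, next in that direction at 0.434 ± 0.136, it was 0.114.

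At the level of genes, 2488 protein-coding genes had a soft-only region at a start site. Of these, 2107 had no stiff peak within 1 kb of any start site, and 381 had one that did not overlap the member. There were 103 genes with more than 1 member, up to 4. Of the 6841 genes with promoter H3K27ac in either list, 31.0% had it in the soft list alone, and each gene list is read against that figure. Only 511 of the 6841 had it in the stiff list alone, so a short list can hold no stiff-only gene at that share. No list was tested.

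The tallest members of genes without a called stiff peak within 1 kb of a start site were mixed in kind. ANXA2 (chr15:60666849-60667135) had p-JUN summits of 388 and 360 fragments on soft against 261 and 357 on stiff (log2 change -0.348 ± 0.135, SE). The adjusted p by limma was 0.185, and 0.00135 when the prior variance followed the mean level. ANXA2 had 63 acetylation fragments and no H3K4me3 over the region. MAPK13, a p38 kinase, had 60 and neither H3K4me3 nor p-JUN over the region. Its summit lay 1176 bp downstream of the start although the region reached into the window. RARA, a retinoic acid receptor, had 60 acetylation fragments and no p-JUN over the region. The RARA H3K4me3 summits held 406 and 519 on soft against 493 and 689 on stiff. Its H3K4me3 change after centring was -0.12 ± 0.09 (log2, SE). MRGPRF, an orphan receptor gene, had 58, CSNK1E 57, RAB1B 55, CHD2 54, FUBP1 53, MDC1 53 and ANKRD12 52. RAB1B, a GTPase of the early secretory pathway, had p-JUN over the region at 50 and 47 fragments in the soft libraries and none in the stiff, where a p-JUN peak lay within 1 kb. MDC1, a mediator of the DNA damage response, shared its promoter with the tubulin gene TUBB. Its p-JUN summits held 231 and 212 fragments on soft against 161 and 201 on stiff (log2 change -0.355 ± 0.123, SE). The adjusted p by limma was 0.152, and 0.00929 when the prior variance followed the mean level.

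Of 20 AP-1 and related factors 11 had promoter H3K27ac, and 6 of the 11 (54.5%) had it in the soft list alone, where 31.0% of all acetylated genes did. These were JUND, FOS, ATF2, ATF3, BATF2 and MAFF, and none was stiff only. FOS, the classic JUN partner, had 26 acetylation fragments 262 bp upstream of its start. Its H3K4me3 held 166 and 194 fragments on soft against 222 and 320 on stiff, a centred log2 change of 0.105 ± 0.0911 (SE, adjusted p = 0.579 by limma). Its p-JUN held 48 and 53 on soft, had no call in stiff replicate 1 and held 35 in stiff replicate 2. ATF3, a stress-induced repressor, had 23 acetylation fragments and strong p-JUN in every library, 286 and 277 on soft against 233 and 306 on stiff, where the matrices overlapped (log2 change -0.132 ± 0.134, adjusted p = 0.579 by limma). ATF2, which pairs with JUN at the longer site, had 18 acetylation fragments and p-JUN at 35 and 39 on soft against 28 and 29 on stiff. That change did not pass (log2 change -0.431 ± 0.16, SE, adjusted p = 0.171 by limma). JUND had its member 784 bp upstream, with 32 fragments and no H3K4me3 over the region. The JUND p-JUN summits held 283 and 259 fragments on soft against 205 and 274 on stiff. Of the 6 soft-only genes, 5 had H3K4me3 at a start site in all 4 libraries, which need not be the start site of the member. Of the immediate early genes NR4A1 and DUSP1 were soft only, out of 3 acetylated.

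The YAP and TEAD list had 6 of 12 acetylated genes (50%) in the soft list alone and none in the stiff list alone. They were YAP1, TEAD4, LATS2, AMOTL2, TGFB2 and F3, that is the coactivator, a DNA-binding partner, a kinase that restrains YAP, an angiomotin and a pair of known targets. YAP1 had 34 acetylation fragments 401 bp upstream of a start site, H3K4me3 at 190 and 291 on soft against 251 and 365 on stiff, and p-JUN at 250 and 218 on soft against 184 and 239 on stiff. After centring, its H3K4me3 change was -0.10 ± 0.125 (log2, SE). AMOTL2 had 37 acetylation fragments and TGFB2 29, each with H3K4me3 and p-JUN in all 4 libraries. AXL, a receptor tyrosine kinase in the same list, held a member of 47 fragments but a stiff peak lay near one of its start sites as well.

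Matrix and adhesion genes were divided. Of 10 acetylated collagen and matrix genes, FN1, THBS1 and LAMC1 were soft only (30%). COL1A1, COL5A1, COL6A1 and COL12A1 were stiff only, 4 of 10, where 511 of all 6841 acetylated genes were. Among matrix turnover genes MMP9, PLAU and TIMP1 were soft only, 3 of 7 (42.9%), and none was stiff only. MMP9, which encodes a gelatinase, had 25 acetylation fragments, no H3K4me3 over the region and p-JUN at 65 and 71 on soft against 60 and 55 on stiff. The 2 matrices did not overlap, but the change did not pass (log2 change -0.298 ± 0.174, adjusted p = 0.338 by limma). PLAU had 50 acetylation fragments, no H3K4me3 over the region and p-JUN at 471 and 431 on soft against 338 and 437 on stiff. Its p-JUN change was -0.286 ± 0.126 (log2, SE). The adjusted p by limma was 0.227, and 0.00501 when the prior variance followed the mean level. TIMP1, an inhibitor of metalloproteinases, had 26 acetylation fragments, with H3K4me3 in all 4 libraries. Integrin and focal adhesion genes were soft only for ITGA1, ITGB5, VCL and FERMT2, 4 of 10 (40%). They were stiff only for ITGA2, ITGB1 and ZYX, 3 of 10.

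Contractile genes and the TGF-beta list showed few soft-only promoters. TPM2 was the only one of 13 acetylated contractile genes (7.69%), where 11 were called in both lists. ACTA2, which encodes smooth muscle actin, is acetylated in both lists, and the member within 1 kb of one of its starts is the promoter of FAS, with 24 fragments. TGFB2 was the only one of 10 in the TGF-beta and SMAD list. The histone acetylation machinery had 2 of 18 (11.1%), EP300 and HDAC11, whereas enzymes and cofactors of H3K4 and H3K27 methylation had 8 of 17 (47.1%). The 8 were SETD1A and KMT2B, which methylate lysine 4, KDM1A, which demethylates it, KDM6A and KDM6B, which demethylate lysine 27, and SUZ12, JARID2 and RBBP7 of Polycomb complex 2. All 8 genes had H3K4me3 and p-JUN at a start site in all 4 libraries, which need not be the start site of the member. No p-JUN peak overlapped the KDM6B member itself in any library.

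The remaining lists of named genes are given as counts of acetylated genes, beside the 31.0% of all genes. Soft-only counts were 5 of 13 p53 targets (BAX, PMAIP1, FAS, PHLDA3 and AEN), 6 of 18 cell cycle genes (CDK1, CDK2, CDKN2B, CDKN2C, RB1 and BUB1), 7 of 24 DNA repair genes and 5 of 17 interferon genes (STAT2, IRF1, IFIT2, MX2 and OAS2). They were 4 of 15 genes of the unfolded protein response, 3 of 12 heat shock genes, 5 of 16 autophagy and lysosome genes and 3 of 11 glycolysis and hypoxia genes. Further counts were 3 of 8 inflammatory genes (CXCL1, NFKB1 and RELB) and 3 of 7 MAP kinase genes (MAPK13, MAP3K1 and DUSP10). The list of stellate quiescence and identity genes gave 2 of 5 (PDGFRB and RGS5), with DDR2 stiff only. RGS5 rested on 9 acetylation fragments.

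Among large families, proteasome subunits were soft only for 5 of 35 (14.3%), splicing factors for 6 of 37 (16.2%), RNA polymerase II and Mediator subunits for 5 of 26 (19.2%) and cytosolic ribosomal proteins for 14 of 66 (21.2%). Respiratory chain subunits gave 13 of 54 (24.1%), mitochondrial ribosomal proteins 19 of 56 (33.9%) and zinc finger genes of the ZNF series 75 of 234 (32.1%). Solute carriers gave 30 of 98 (30.6%) and replication-dependent histone genes 6 of 22 (27.3%). HOX genes and clustered protocadherins were acetylated at 4 and 1 genes only, of which 2 and 1 were soft only.

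**Figure D5:**
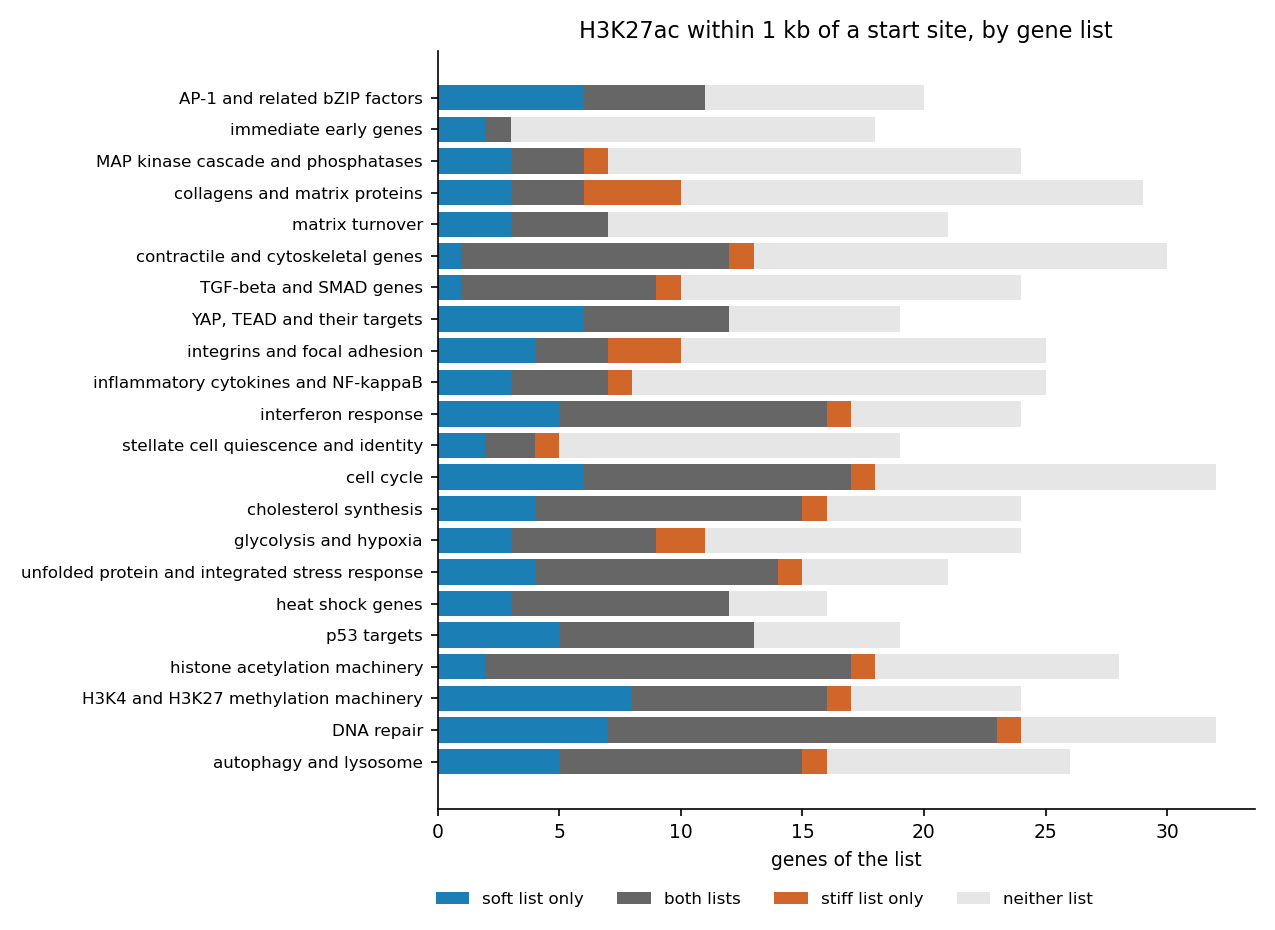
Number of genes in each of 22 gene lists with H3K27ac within 1 kb of a start site in the soft list only, both lists, the stiff list only or neither. The AP-1 list has 6 soft-only genes of 11 acetylated and the YAP and TEAD list 6 of 12, while the contractile list has 1 of 13.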

How the data were processed

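Per the study, Trim Galore trimmed the reads, Bowtie2 placed them on hg19, and Picard handled duplicates. Peak names in the deposited lists hold the word macs2. Tool versions and calling options are not given in the sources used here. Each of the 14 deposited lists gives for a peak its fold, a ratio over local background, its p-value and q-value on a −log10 scale, and a score, all from the authors' peak caller. Peaks on 24 chromosomes were used. No narrow peak had a −log10 q under 5.

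Read totals were not analysed here. Summit fragments n and background were solved from the deposited fold, (n + 1)/(background + 1), and the Poisson p. A whole number within a relative error of 0.0001 resulted at 99.92% of soft and 99.95% of stiff H3K27ac peaks, and at all narrow peaks of the other targets. Start sites were those of 89204 protein-coding transcripts of GENCODE release 44 mapped to GRCh37. The 33 gene lists matched in full, and PECAM1, the 1 marker without a protein-coding start in this annotation, was left out.

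limma 3.58.1 in R 4.3.3 compared stiff with soft on log2 fragments, 2 libraries against 2, with Benjamini-Hochberg adjustment over all regions of a mark. The scripts were first tested on simulated data with known answers. Python 3.11.15, pandas and pysam were used for the rest. Named members included the 10 with most fragments at genes without a called stiff peak and the 3 lowest p per direction and mark. Also named were the 3 best calls confined to 1 matrix, up to 4 per gene list, and members at genes that the study's text names. They were 150 in all, of which those that carry a statement are printed. The members, lists and tests were chosen with earlier results of these data known. Alternatives were other windows, thresholds, list lengths, scalings, a mean-variance trend, left-out replicates and a replicate block. Some withheld items are not reported here.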

Additional observations from a re-analysis of the deposited data

How the results depend on the processing

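The number of soft-only promoters was 1841 to 2878 under 6 of 7 planned definitions. It fell to 1113 when the soft list was shortened to the length of the stiff list, and to 1177 and 286 when the soft list alone was held to a −log10 q of 10 or 15, both chosen after seeing the data. Counting peaks within 1 kb left the H3K4me3 difference at 0.0886 points. Leaving out 1 library gave 0.332 to 0.819 points for H3K4me3, -11.2 to 2.44 for p-JUN and -0.244 to 0.0221 for H3K27me3.

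For H3K4me3 limma called 36 members among better-covered regions (2.23%, all regions 2.17%) and 114 with a mean-variance trend (5.6%, all 4.46%), against 0. For p-JUN it called 62 (14.3%, all 10.9%) and 140 (10.2%, all 13.5%), and 32 with the replicate block (2.32%, all 3.69%), against 0. The block left the differences at 0.576, -4.38 and -0.111 points and the medians at 0.0226 and -0.210, and called 0 members for H3K4me3. Deviations of same-numbered libraries correlated at -0.0612 (H3K4me3) and 0.0508 (p-JUN), so the numbers were not taken as pairs. Leaving out 1 library gave 0 members in each mark, with medians of 0.0144 to 0.0283 and -0.274 to -0.153. The H3K4me3 median was -0.0119 after quantile scaling and 0.00145 on the deposited fold, and the p-JUN median -0.0446 on the fold. AP-1 letters were in 2.30% within 50 bp, 7.31% of whole regions and 7.13% with TGACGTCA added. The cause of these changes was not tested.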
